A study of Mus musculus with 24 samples.

Results

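Transcripts of 10 genes of the PGC-1, PPAR and adipogenic programme were followed in mouse muscle stem cells and myoblasts that had lost Chd4, which encodes the ATP-driven motor of NuRD, a complex that remodels chromatin. The genes were taken by symbol from a list, which was drawn up with earlier results of these data known. They are 10 of the 46078 genes in each of the 2 expression tables. The coactivators are Ppargc1a and Ppargc1b, and the nuclear receptors are Ppara, Ppard and Pparg. The C/EBP factors are Cebpa and Cebpb, and the lipid handling genes are Fabp4, Lpl and Plin2. RNA-seq was available for 16 samples in 4 groups of 4, all from C57BL/6 mice 2 to 4 months old. In vitro, primary myoblasts grown from satellite cells of uninjured Chd4fl/fl muscle were held in proliferative conditions and read 72 hours after an adenovirus carrying Cre (AdCRE) or GFP (AdGFP). In vivo, the 2 groups were satellite cells of Chd4dPax7ER and Chd4fl/fl mice, sorted 3 days after muscle injury by cardiotoxin with a gate that was negative for SCA1 and CD45 and positive for α7-integrin and CD34.

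Both groups in vitro carried the floxed Chd4 alleles, and the case virus alone carried Cre, so loss of Chd4 and exposure to Cre cannot be told apart. In vivo Pax7ER appears in the case genotype alone, in a form the labels do not spell out, and the sources used here do not give whether control mice held a Cre or were treated alike. Replicates are numbered 1 to 4 with no word on whether each is its own animal or culture, so the p-values cover the spread among these samples, which may be technical. In bulk samples, fewer cells of a type and less RNA per cell cannot be told apart.

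PPARα, PPARδ and PPARγ are ligand-activated transcription factors that bind DNA as dimers with an RXR receptor and switch on genes of fatty acid use and storage. PGC-1α and PGC-1β bind these and other nuclear receptors and raise their activity, and in skeletal muscle PGC-1α is known for driving mitochondrial biogenesis and the oxidative fibre programme. In fat cell formation C/EBPβ acts early, and PPARγ and C/EBPα then maintain each other's expression, with Fabp4, Lpl and Plin2 among their targets.

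Of the 10 genes, 7 had an entry in the RefSeq promoter table (build GRCm38.p6), and 3, Ppargc1b, Fabp4 and Lpl, were not matched. The windows of Ppargc1a, Cebpa and Cebpb, which passed the test in vivo as described below, are shown. Plin2 passed it too, but its window (chr4:86670060-86670309) is not printed. That window held 1 E-box, 1 nuclear receptor half-site (AGGTCA) and 1 CCAAT box. Each window is the 250 bases before a RefSeq transcript start, and those shown run 5′ to 3′ on the gene's strand. Capitals mark E-boxes (CANNTG, the motif of MyoD-type factors) in Ppargc1a, the TATA box (TATAAA) in Cebpa, and in Cebpb the core of a cAMP response element (TGACG, or CGTCA where it lies on the other strand).
Ppargc1a chr5:51567726-51567975, minus strand: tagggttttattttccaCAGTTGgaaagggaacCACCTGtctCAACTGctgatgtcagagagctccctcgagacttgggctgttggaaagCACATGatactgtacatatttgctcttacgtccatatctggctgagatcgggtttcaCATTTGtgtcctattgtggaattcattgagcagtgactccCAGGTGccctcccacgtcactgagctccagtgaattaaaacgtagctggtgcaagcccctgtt
Cebpa chr7:35119043-35119292, plus strand: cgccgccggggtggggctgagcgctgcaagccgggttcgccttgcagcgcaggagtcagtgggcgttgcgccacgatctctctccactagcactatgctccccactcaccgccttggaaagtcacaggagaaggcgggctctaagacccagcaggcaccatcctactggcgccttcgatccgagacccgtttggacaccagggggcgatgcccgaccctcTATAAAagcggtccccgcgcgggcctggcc
Cebpb chr2:167688665-167688914, plus strand: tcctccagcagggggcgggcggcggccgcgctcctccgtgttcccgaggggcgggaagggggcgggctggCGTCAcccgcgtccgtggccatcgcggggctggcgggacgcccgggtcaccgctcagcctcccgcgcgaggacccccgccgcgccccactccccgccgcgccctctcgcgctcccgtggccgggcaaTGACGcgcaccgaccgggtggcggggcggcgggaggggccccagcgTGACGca

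The Ppargc1a window held 6 E-boxes, which began 233, 217, 208, 160, 103 and 63 bases before the start and did not overlap one another. At least 6 were found in 0.274% of 32851 promoter windows of the same length, and at least 1 in 66.2%. This window also held 1 TGACG on the other strand, outside the E-boxes. The annotated span of the gene (chr5:51454249-52115853) reaches far upstream of it, so the window belongs to one of several possible starts. In Cebpb, TGACG was found 3 times, beginning 180, 53 and 7 bases before the start, and at least 3 matches occurred in 0.688% of the windows and at least 1 in 17.8%. In Cebpa a single TATA box began 30 bases before the start, a motif present in 12.4% of windows. The base composition of the 3 windows differed, with 48% G and C in Ppargc1a, 66.4% in Cebpa and 81.6% in Cebpb. Pparg has 3 windows in the table, and the one at chr6:115421816-115422065 held 2 matches to the C/EBP palindrome TTGCNNAA, which occurs in 9.56% of windows. In all, 6 motifs were searched on both strands of each window, and the motif described differs from gene to gene. The shares are not adjusted for this choice of motif. Nor were the windows they refer to matched for base composition, so the shares do not measure enrichment. A match is a description of the letters only.

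Chd4 was lower in both case groups in every library. In vitro it stood at 15.8, 23.9, 21.3 and 22.1 RPKM (reads scaled to gene length and to the reads of the library) in AdCRE replicates 1 to 4 and at 76.2, 67.8, 70.8 and 85.5 RPKM in AdGFP replicates 1 to 4. In vivo it stood at 64.1, 50.4, 63.8 and 48.7 RPKM in Chd4dPax7ER and at 135.1, 125.8, 118.6 and 126 RPKM in Chd4fl/fl. The case mean was 27.7% of the control mean in vitro and 44.9% in vivo, so Chd4 transcript remained in both. Satellite cell and myoblast markers were present in all libraries, with summed levels of 11 genes between 963 and 2238 RPKM. RPKM summed to 286802 to 326812 per library, and mitochondrial transcripts held 2.90 to 6.56% of the sum in vitro and 9.17 to 12.5% in vivo. RPKM hides the number of reads, but the steps between low values in vitro gave relative depths of 1 to 1.64 across libraries.

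**Figure D1:**
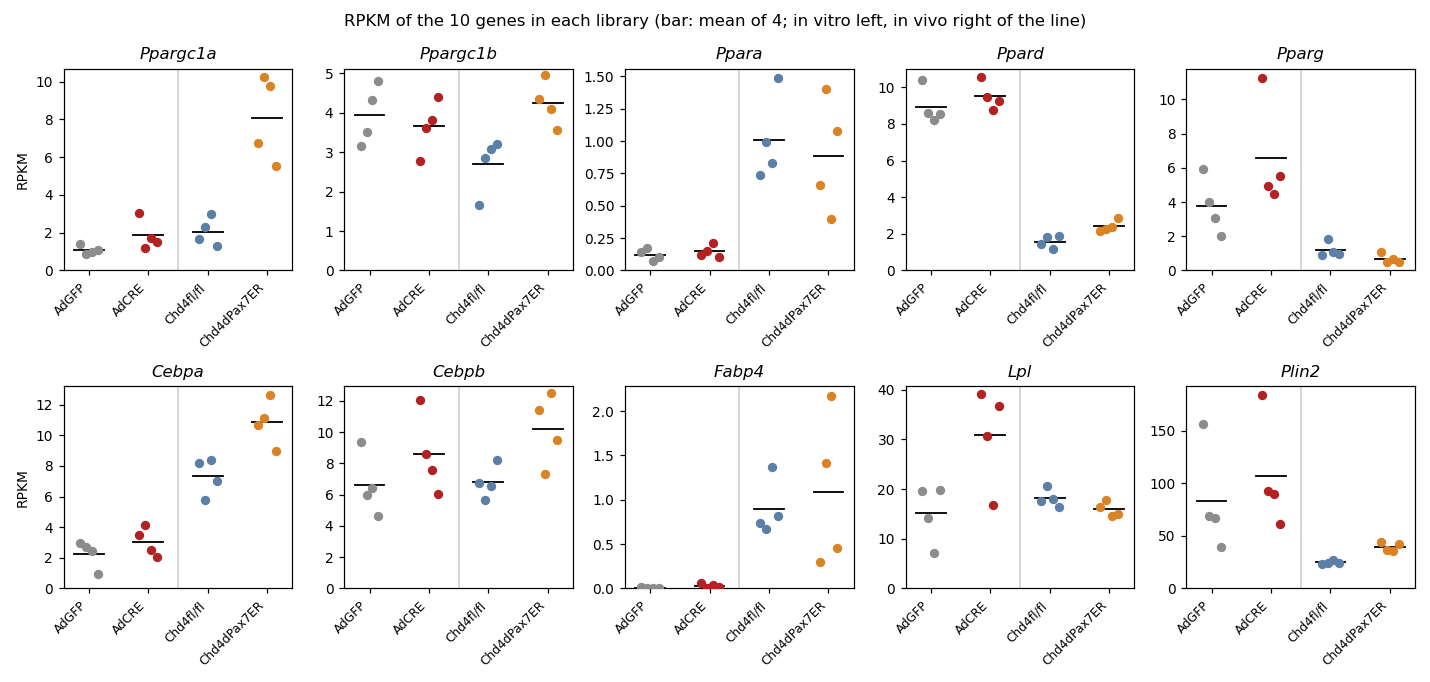
Levels of the 10 genes in RPKM (linear vertical axes, each from 0), with 1 point per library and a bar for the mean of 4 libraries; AdGFP and AdCRE lie left of the grey line, Chd4fl/fl and Chd4dPax7ER right of it. Ppargc1a and Plin2 of Chd4dPax7ER lie wholly above Chd4fl/fl, while in vitro the points of the 2 viruses overlap for all 10 genes.

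In freshly sorted satellite cells, the gene that moved most was Ppargc1a. With limma on log2(RPKM + 0.5) and Benjamini-Hochberg adjustment over all 13344 genes tested, 4 of the 10 genes rose in Chd4dPax7ER at an adjusted p under 0.05 (Ppargc1a, Cebpa, Cebpb and Plin2), and none fell. Over all genes tested in that comparison, 14.7% rose and 11.9% fell, 26.6% in either direction. These were 1960 genes rising and 1588 falling, a balance that turned round with TPM scaling (1698 and 1960) and with quantile scaling (1751 and 1949). All 10 genes passed the filter on low values (at least 0.5 RPKM in at least 4 of 8 libraries), and their median log2 fold change was 0.52 beside -0.02 over all genes. The groups did not overlap for 5 genes, all higher in Chd4dPax7ER (Ppargc1a, Ppargc1b, Ppard, Cebpa and Plin2), beside 30.3% of all genes tested in either direction.

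Ppargc1a encodes PGC-1α. In vivo its level was 6.75, 10.2, 9.75 and 5.51 RPKM in Chd4dPax7ER replicates 1 to 4 and 1.65, 2.28, 3.01 and 1.29 RPKM in Chd4fl/fl replicates 1 to 4. The lowest Chd4dPax7ER library thus lay above the highest Chd4fl/fl library, and the case mean was 392% of the control mean. The log2 fold change was 1.75 ± 0.26 (SE, 4 against 4 libraries), with an adjusted p of 0.00159. Without each library in turn it stayed between 1.59 and 1.92, at adjusted p of 0.00577 or lower.

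Its relative Ppargc1b, which encodes PGC-1β, stood at 4.35, 4.96, 4.1 and 3.57 RPKM in Chd4dPax7ER and at 1.66, 2.85, 3.09 and 3.2 RPKM in Chd4fl/fl. The groups did not overlap, but the nearest libraries were close. The log2 fold change was 0.59 ± 0.19 with an adjusted p of 0.05004, just outside the threshold of 0.05. With a pseudocount of 1 in place of 0.5, or with the filter at 1 RPKM, the adjusted p was 0.0474 and 0.0467.

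None of the 3 receptor genes passed the test in vivo. Ppard, the PPAR that predominates in muscle, stood at 2.13, 2.28, 2.4 and 2.85 RPKM in Chd4dPax7ER and at 1.43, 1.81, 1.19 and 1.9 RPKM in Chd4fl/fl. These groups did not overlap, and the log2 fold change was 0.49 ± 0.17 with an adjusted p of 0.0596 (0.0348 without the trend of variance on level). Pparg, the receptor of fat cells, was near the filter in vivo, at 1.06, 0.52, 0.7 and 0.52 RPKM in Chd4dPax7ER and 0.88, 1.83, 1.09 and 0.96 RPKM in Chd4fl/fl. Its groups overlapped, with a log2 fold change of -0.48 ± 0.24 and an adjusted p of 0.164. For Ppara, the receptor best known from liver and oxidative tissues, the ranges were 0.4 to 1.4 RPKM and 0.74 to 1.49 RPKM, with a log2 fold change of -0.16 (95% interval -0.78 to 0.46, adjusted p 0.704).

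Both C/EBP genes rose in vivo. Cebpa was at 10.7, 11.1, 12.6 and 9.01 RPKM in Chd4dPax7ER and at 8.21, 5.77, 8.36 and 7.02 RPKM in Chd4fl/fl, groups that did not overlap. Its log2 fold change was 0.54 ± 0.14 with an adjusted p of 0.0223. Cebpb was at 11.4, 7.32, 12.5 and 9.47 RPKM in Chd4dPax7ER and at 6.72, 5.68, 6.54 and 8.19 RPKM in Chd4fl/fl. Its groups overlapped, because Chd4dPax7ER replicate 2 lay below Chd4fl/fl replicate 4, and the log2 fold change was 0.54 ± 0.17 with an adjusted p of 0.0461. Both calls are near the threshold. Cebpa lost its call without Chd4dPax7ER replicate 2 or 3 (adjusted p 0.0509 and 0.0549) and without Chd4fl/fl replicate 2 or 4 (0.0534 and 0.053). Cebpb lost its call without Chd4dPax7ER replicate 1, 3 or 4 and without Chd4fl/fl replicate 1, 2 or 3 (adjusted p 0.0739 to 0.116), and with each library scaled to a common sum (0.0658), with no filter (0.0787) or without the trend (0.0604).

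Of the lipid handling genes, Plin2 alone rose in vivo. Plin2 encodes perilipin 2, a coat protein of lipid droplets in many cell types. It stood at 44.4, 36.9, 35.8 and 42.3 RPKM in Chd4dPax7ER and at 23.3, 24.5, 26.7 and 24.3 RPKM in Chd4fl/fl, so that the lowest case library was well above the highest control. The case mean was 162% of the control mean, with a log2 fold change of 0.68 ± 0.09 and an adjusted p of 0.000869. Without each library in turn the log2 fold change was 0.62 to 0.73, and the call held each time. Lpl, the lipase that frees fatty acids from circulating triglycerides, was at 16.3, 17.9, 14.6 and 15.1 RPKM in Chd4dPax7ER and at 17.6, 20.7, 17.9 and 16.3 RPKM in Chd4fl/fl. Its groups overlapped, and the log2 fold change of -0.18 had a 95% interval from -0.40 to 0.04 (adjusted p 0.212). Fabp4, the fatty acid binding protein of adipocytes, endothelium and macrophages, was scattered between 0.3 and 2.17 RPKM in Chd4dPax7ER and between 0.67 and 1.37 RPKM in Chd4fl/fl. Its interval, -0.83 to 0.90 on the log2 scale, was too wide to tell a rise from a fall (adjusted p 0.958).

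In cultured myoblasts the AdCRE and AdGFP groups overlapped for every one of the 10 genes, beside 10.0% of all genes whose groups did not overlap, but same-numbered libraries moved together. Ppara (0.0716 to 0.211 RPKM) and Fabp4 (0 to 0.0601 RPKM) were below the filter, and 8 genes were tested. Without the replicate number in the fit, 0 of these 8 were called by limma, beside 0.656% of all 13567 genes tested. An unadjusted p under 0.05 was found for 2 of the 8 and for 2111 of the 13567 genes. The latter is also the background for such counts of the in vitro lists below. The replicate numbers pair these libraries, since deviations from the group mean correlated at 0.711 to 0.856 between same-numbered libraries. Numbers 2 and 3 were also alike across the viruses (0.438 for AdCRE 2 with AdGFP 3, 0.390 for AdCRE 3 with AdGFP 2). Pairs 2 and 3 may thus not be independent of each other, as the block takes them to be. With the replicate number as a block, 6 of the 8 genes rose in AdCRE and 0 fell, beside 17.5% of all genes rising, 18.7% falling and 36.2% in either direction. The median log2 fold change of the 8 was 0.41, beside -0.01 over all genes tested.

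**Figure D2:**
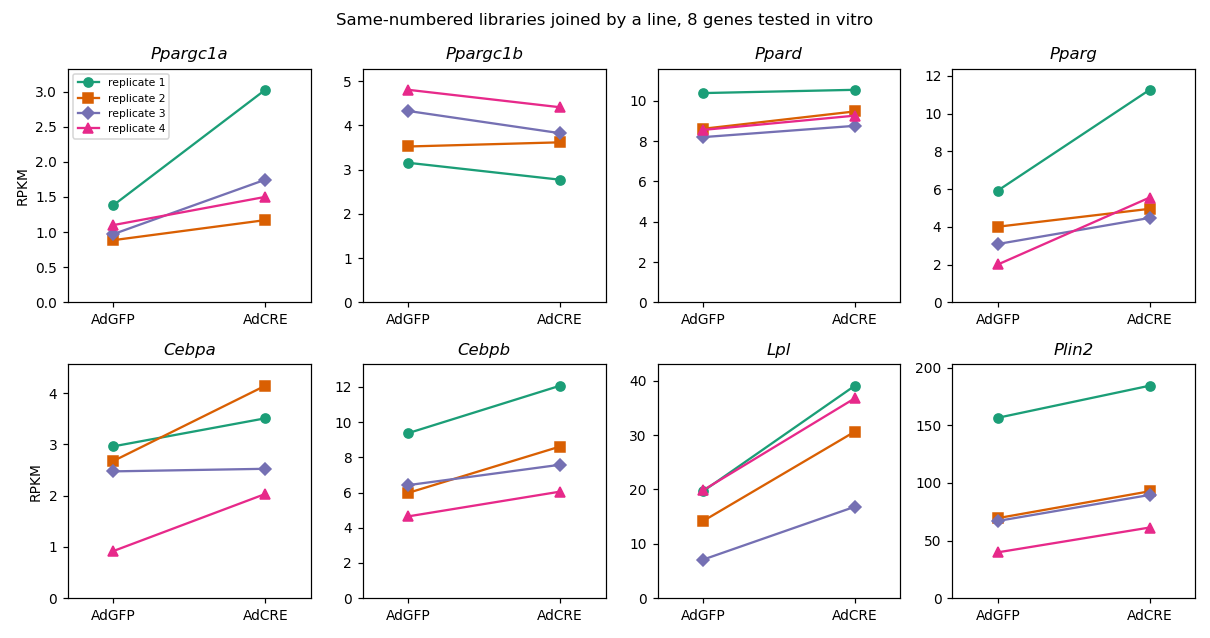
Levels in RPKM (linear axes from 0) of the 8 genes tested in vitro, with a line joining the AdGFP and AdCRE libraries of the same replicate number. Lines for Lpl, Plin2, Pparg, Ppargc1a, Cebpa, Cebpb and Ppard go up in 4 of 4 pairs, while that of Ppargc1b goes up in 1 of 4; the pairs themselves start at different levels.

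Lpl had the largest fold change in culture. It stood at 39.1, 30.6, 16.8 and 36.8 RPKM in AdCRE replicates 1 to 4 and at 19.7, 14.2, 7.08 and 19.8 RPKM in AdGFP replicates 1 to 4, higher in AdCRE in 4 of 4 pairs. AdCRE replicate 3 lay below 2 of the AdGFP libraries, since replicate number 3 was low with either virus. The log2 fold change was 1.03, with an SE of 0.37 and an adjusted p of 0.243 without the block and an SE of 0.06 and an adjusted p of 0.00016 with it. Across the pairs the log2 difference ran from 0.87 to 1.19.

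Pparg and Ppargc1a also rose with the block, with pairs that differed more. For Pparg the levels were 11.3, 4.95, 4.47 and 5.55 RPKM in AdCRE and 5.92, 4, 3.09 and 2 RPKM in AdGFP, with replicate 1 the highest under either virus. Its log2 fold change was 0.72 (SE 0.15 and adjusted p 0.0105 with the block, SE 0.35 and adjusted p 0.368 without), and the pairs ranged from 0.28 to 1.27. Ppargc1a was at 3.02, 1.17, 1.75 and 1.5 RPKM in AdCRE and at 1.38, 0.884, 0.971 and 1.1 RPKM in AdGFP. Its log2 fold change was 0.53 (adjusted p 0.014 with the block, 0.32 without), and without pair 3 the blocked adjusted p was 0.0542. Ppargc1b, at 2.77 to 4.41 RPKM in AdCRE and 3.16 to 4.81 RPKM in AdGFP, had a log2 fold change of -0.10 and was higher in AdCRE in 1 of 4 pairs (adjusted p 0.833, with the block 0.243). Ppard, at 8.77 to 10.6 RPKM and 8.21 to 10.4 RPKM, had a log2 fold change of 0.09 (adjusted p 0.729, with the block 0.165), although 4 of 4 pairs were higher. Among all genes tested, 25.1% were higher in 4 of 4 pairs.

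The C/EBP genes and Plin2 followed the pairs closely. Cebpb was at 12.1, 8.61, 7.58 and 6.05 RPKM in AdCRE and at 9.37, 5.98, 6.42 and 4.65 RPKM in AdGFP, and each AdCRE library lay above its own partner. Its log2 fold change was 0.35, with an adjusted p of 0.538 without the block and 0.00377 with it. Plin2, the most abundant of the 10 genes, was at 184, 92.8, 89.6 and 61.3 RPKM in AdCRE and at 157, 69.5, 67.0 and 39.8 RPKM in AdGFP. The replicates of one virus thus spanned a wider range than the viruses differed by, and the log2 fold change of 0.42 had an adjusted p of 0.72 without the block and 0.00273 with it. Cebpa was at 3.51, 4.15, 2.52 and 2.03 RPKM in AdCRE and at 2.96, 2.68, 2.47 and 0.92 RPKM in AdGFP. The call for Cebpa is the weakest of the 6: its log2 fold change of 0.40 had an adjusted p of 0.591 without the block and 0.0484 with it, and the blocked call was lost without pair 1, 2 or 4 (adjusted p 0.0603, 0.146 and 0.149).

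**Figure D3:**
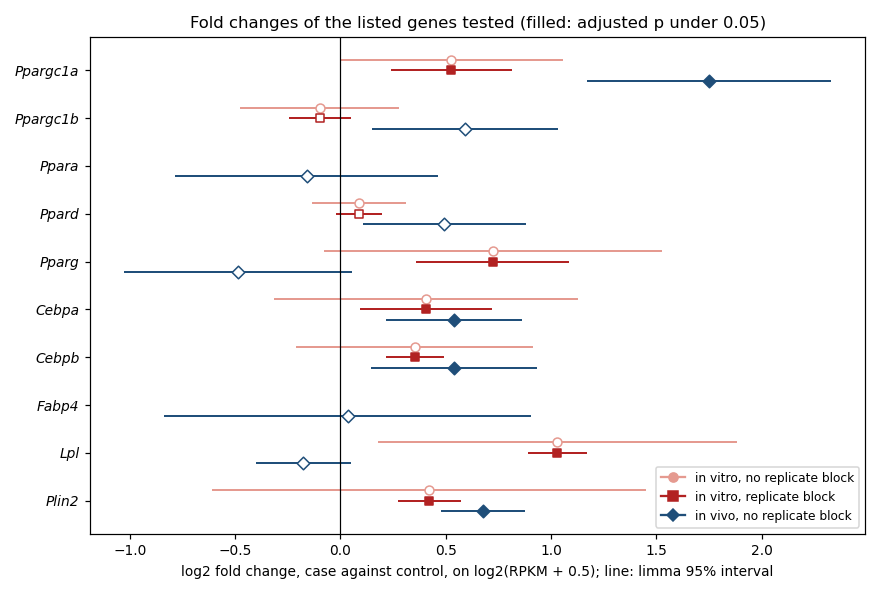
Log2 fold changes, case against control, on the log2(RPKM + 0.5) scale with limma's 95% intervals, for the listed genes that were tested in each setting; filled symbols have an adjusted p under 0.05, and Ppara and Fabp4 were not tested in vitro. Ppargc1a lies at 0.53 in vitro and 1.75 in vivo, while Lpl lies at 1.03 in vitro and -0.18 in vivo.

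The 2 settings were compared through their fold changes, with one fit of all 16 libraries over 11941 genes tested in both. Without a block, 0 of the 8 genes were called different by limma, beside 4.12% of all genes. An unadjusted p under 0.05 was found for 5 of the 8 and for 2266 of the 11941 genes. With the in vitro libraries blocked by replicate, 3 were called, beside 10.8% of all genes: Ppargc1a, Pparg and Lpl. Chd4 itself fell less in vivo than in vitro (a difference of 0.68 on the log2 scale, adjusted p 0.0429 without a block). The log2 fold change of Ppargc1a was 1.22 higher in vivo than in vitro (95% interval with the block 0.51 to 1.94, adjusted p 0.0342, without the block 0.0709). That of Lpl was 1.21 lower in vivo (interval -1.47 to -0.94, adjusted p 0.000239, without the block 0.107). That of Pparg was also 1.21 lower in vivo (interval -1.85 to -0.56, adjusted p 0.0237, without the block 0.13). For Cebpa, Cebpb and Plin2, which rose in both settings with the in vitro block, the differences were 0.13, 0.19 and 0.26, with blocked intervals of -0.34 to 0.61, -0.27 to 0.64 and 0.01 to 0.50 and adjusted p of 0.752, 0.632 and 0.179. Ppargc1b and Ppard differed by 0.69 and 0.41 (blocked adjusted p 0.0741 and 0.154).

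RPKM is scaled by gene length, so levels of different genes can be ordered within a group. Plin2 ranked first and Lpl second in all 4 groups. In AdGFP, Plin2 averaged 83.2 ± 50.7 RPKM (SD, n = 4), followed by Lpl, Ppard, Cebpb, Ppargc1b, Pparg, Cebpa and Ppargc1a (1.08 ± 0.22), and from Lpl to Ppargc1a each neighbour's range overlapped the next. Ppara (0.122 ± 0.046) and Fabp4 (0.00792 ± 0.0072) were set apart below. In AdCRE the order was Plin2, Lpl, Ppard, Cebpb, Pparg, Ppargc1b, Cebpa, Ppargc1a, Ppara and Fabp4, and ranges overlapped between Ppard, Cebpb and Pparg and between Ppargc1b, Cebpa and Ppargc1a.

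In vivo the C/EBP genes followed Lpl, and the receptors were low. In Chd4fl/fl the order after Plin2 (24.7 ± 1.4 RPKM) and Lpl (18.1 ± 1.9) was Cebpa, Cebpb, Ppargc1b, Ppargc1a, Ppard, Pparg, Ppara and Fabp4, and every neighbouring pair from Ppargc1b downward overlapped. In Chd4dPax7ER, Ppargc1a (8.06 ± 2.29 RPKM) ranked next after Cebpb, with a range above that of Ppargc1b (4.25 ± 0.58) and overlapping that of Cebpb (10.2 ± 2.3). Ppard, Fabp4, Ppara and Pparg came last there, with overlapping ranges. The tables were taken to be normalized separately, so levels are not compared between the settings.

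The genes whose profile was most like that of Ppargc1a over the 8 in vivo libraries, by Pearson correlation of log2(RPKM + 0.5), were Atp9a (r = 0.985), Fhad1 (0.984) and Serpine2 (0.981). Those most like Lpl over the 8 in vitro libraries were Bmt2 (0.976), Tnc (0.975) and Fabp7 (0.974). In each case the libraries are those of both groups, so a difference between the groups enters the correlation. The genes are the highest of 13344 tested in vivo and 13567 tested in vitro, so these values are a description only. Fhad1 averaged 0.225 RPKM in Chd4fl/fl, below the filter value of 0.5 RPKM.

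Among the partners and cofactors of the PPARs, 2 of 18 tested rose in vivo and 2 fell, which is near the 14.7% rising and 11.9% falling over all genes. The median log2 fold change was -0.08 (all genes -0.02). Lpin1, a phosphatidate phosphatase that also acts as a coactivator with PGC-1α, rose from 2.29 ± 0.46 to 4.65 ± 1.21 RPKM (log2 fold change 0.87 ± 0.21, adjusted p 0.0142). Rxra, an RXR that pairs with PPARs, rose from 8.74 ± 0.48 to 12.5 ± 1.9 RPKM (0.49 ± 0.11, adjusted p 0.0125). Its relative Rxrb fell from 7.82 ± 0.75 to 6.02 ± 0.67 RPKM (-0.35 ± 0.11, adjusted p 0.048), a call that was lost without any one of Chd4dPax7ER replicates 2 to 4 or of the Chd4fl/fl libraries (adjusted p 0.0554 to 0.119). The other gene that fell was Hdac3, a corepressor deacetylase, named after its value was seen (-0.32, adjusted p 0.0359). In vitro 0 of 19 were called without the block (1 had an unadjusted p under 0.05), and with it 3 rose and 3 fell, near the 17.5% and 18.7% of all genes. Ncoa1, a receptor coactivator, had a log2 fold change of 0.37 (adjusted p 0.617, with the block 0.000836), and Lpin1 of 0.50 (adjusted p 0.405, with the block 0.00421).

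Of the genes known to act downstream of PGC-1 in mitochondrial biogenesis, 1 of 11 tested rose in vivo and 2 fell, beside 14.7% and 11.9% of all genes, so the counts do not set this list apart. The median log2 fold change was -0.24, and 9 of the 11 values were negative. The gene that rose was Fndc5, the precursor of the myokine irisin, from 10.9 ± 3.5 to 32.1 ± 9.1 RPKM (1.55 ± 0.27, adjusted p 0.0036). Those that fell were Gabpa, the DNA-binding subunit of NRF-2, from 28.1 ± 2.1 to 19.8 ± 1.7 RPKM (-0.50 ± 0.09, adjusted p 0.00348), and Tfam, which packages and transcribes mitochondrial DNA, from 15.2 ± 1.2 to 10.9 ± 1.0 RPKM (-0.46 ± 0.10, adjusted p 0.00772). In vitro 0 of 12 were called without the block (3 had an unadjusted p under 0.05), and 2 rose and 3 fell with it (all genes 17.5% and 18.7%). There Fndc5 had a log2 fold change of 0.92 (adjusted p 0.168, with the block 0.000574) and Gabpa of -0.33 (adjusted p 0.0916, with the block 0.003).

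A list of 18 genes known to act before or beside PPARγ was not sorted by whether they promote or oppose fat cell formation. A rise of its genes is thus not a rise of the fat cell programme. Of the 18, 12 were tested in vivo, where 4 rose and 1 fell, with a median of 0.25. Over all genes 14.7% rose and 11.9% fell. Wnt10b, a Wnt ligand, was at 2.57 to 5.85 RPKM in Chd4dPax7ER and at 0 to 0.34 RPKM in Chd4fl/fl (log2 fold change 2.83 ± 0.26, adjusted p 0.000175). Dlk1, also called preadipocyte factor 1, was at 0.87 to 1.68 RPKM against 0 to 0.22 RPKM (1.39 ± 0.24, adjusted p 0.0031). Wnt10b and Dlk1, 2 of the 4, passed the filter through their case libraries alone, so they could only rise, and the count of 4 supports nothing about the list. Gata2 rose from 2.93 ± 0.71 to 6.74 ± 1.5 RPKM (1.08 ± 0.21, adjusted p 0.00588). Klf2 (0.87, adjusted p 0.0474) and the gene that fell, the glucocorticoid receptor Nr3c1 (-0.32, adjusted p 0.018), are named after their values were seen. In vitro 0 of 13 were called without the block (2 had an unadjusted p under 0.05), and with it 4 rose and 2 fell (all genes 17.5% and 18.7%). Dlk1 had a log2 fold change of 0.86 there (adjusted p 0.163, with the block 0.00107). Klf2, with a log2 fold change of -0.30, was at 2.21, 12.3, 13.4 and 2.47 RPKM in AdCRE and 2.91, 15.2, 17.3 and 3 RPKM in AdGFP, so that the pairs differed far more than the viruses (adjusted p 0.902, with the block 0.00377).

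Of the genes of fatty acid oxidation that are known PPAR targets, 8 of 18 tested rose in vivo and 1 fell, with a median log2 fold change of 0.32, beside 14.7% rising and 11.9% falling over all genes. Ucp2, a carrier of the inner mitochondrial membrane, rose from 5.08 ± 1.44 to 17.4 ± 3.4 RPKM (1.71 ± 0.21, adjusted p 0.000669). Fgf21, a secreted factor, rose from 8.84 ± 2.93 to 18.5 ± 3.3 RPKM (1.06 ± 0.21, adjusted p 0.00581). Cpt2, which forms acyl-CoA inside the mitochondrion, rose from 5.50 ± 0.82 to 10.9 ± 1.5 RPKM (0.93 ± 0.14, adjusted p 0.00161). The gene that fell was Acot2, a mitochondrial thioesterase, named after its value was seen, with groups that overlapped (-1.42, adjusted p 0.0367). In vitro 0 of 18 were called without the block (3 had an unadjusted p under 0.05), and 9 rose and 0 fell with it, at a median of 0.14, beside 17.5% and 18.7% of all genes. Acadm, a mitochondrial acyl-CoA dehydrogenase, had a log2 fold change of 0.37 (adjusted p 0.22, with the block 0.000961). Cpt2 differed between the settings without a block, by 0.84 ± 0.16 (adjusted p 0.00937), but it was picked for its rise in vivo, which favours such a difference.

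Of the fatty acid uptake and lipid droplet genes, 8 of 18 tested rose in vivo and 1 fell, with a median of 0.39, beside the same 14.7% and 11.9% of all genes. Fabp3, the fatty acid binding protein of muscle, was at 5.28, 15.7, 5.63 and 5.77 RPKM in Chd4dPax7ER and at 0.96 to 1.62 RPKM in Chd4fl/fl (2.13 ± 0.32, adjusted p 0.00184, and 1.77 without Chd4dPax7ER replicate 2). Dgat2, which makes triglyceride, rose from 2.32 ± 0.43 to 7.73 ± 1.02 RPKM (1.55 ± 0.15, adjusted p 0.000224). Lipe, the hormone-sensitive lipase, rose from 0.973 ± 0.078 to 2.98 ± 0.37 RPKM (1.24 ± 0.15, adjusted p 0.000641). Fabp5, the gene that fell, is named after its value was seen (-0.50, adjusted p 0.0242). In vitro Dgat2 was the only gene of the 5 lists called without the block, 1 of 19 tested here, from 6.63 ± 0.51 RPKM in AdGFP to 11.7 ± 1.4 RPKM in AdCRE with groups that did not overlap (0.78 ± 0.10, adjusted p 0.0176, with the block 0.000266). Without any one library other than AdCRE replicate 1, its adjusted p without the block was 0.0501 to 0.0772. With the block 8 of the 19 rose and 2 fell (all genes 17.5% and 18.7%), one of the 8, Plin5, having passed the filter through its case libraries alone. Plin3, a further droplet coat protein, had a log2 fold change of 0.50 (adjusted p 0.437, with the block 0.000438). The fold change of Dgat2, a gene picked for its fold changes in these data, differed between the settings, by 0.77 ± 0.17 (adjusted p 0.0236 without a block).

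**Figure D4:**
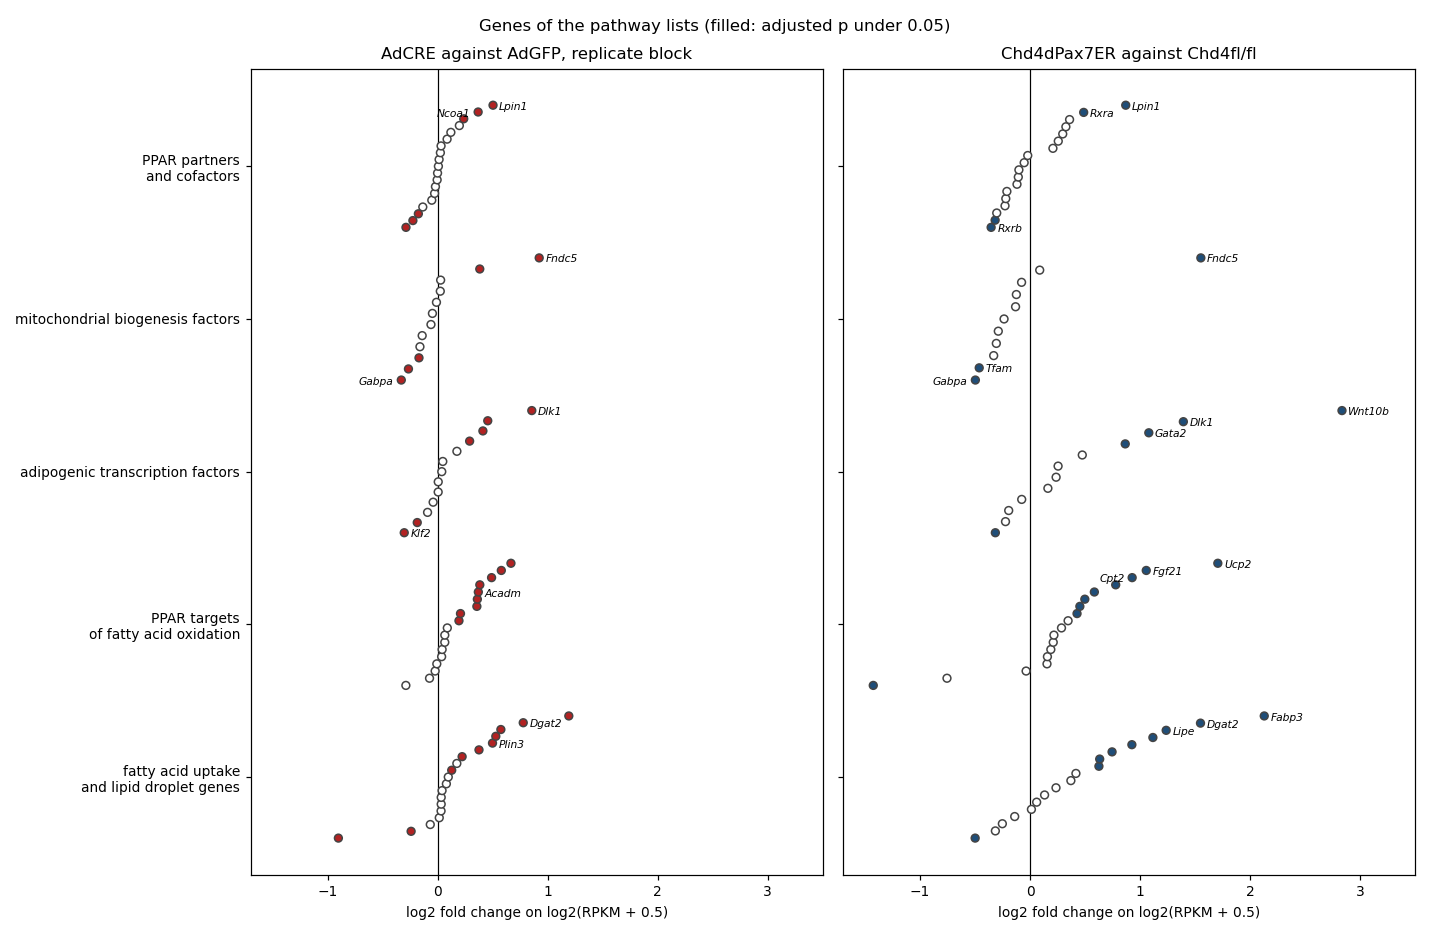
Log2 fold changes on the log2(RPKM + 0.5) scale of the tested genes of 5 pathway lists, in vitro with the replicate block (left) and in vivo without it (right). Filled points have an adjusted p under 0.05, and labels mark described genes that were named by the rule for that comparison. Genes named after their values were seen (Hdac3, Klf2, Nr3c1, Acot2 and Fabp5 in vivo) carry no label. In vivo the filled points of the last 2 lists lie mostly to the right of 0, while those of the mitochondrial list lie on both sides.

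Markers of other cell types were read beside these genes. Mature adipocyte markers were near 0: the 11 genes summed to 0.903 to 3.16 RPKM in AdCRE, 0.603 to 2.18 in AdGFP, 2.24 to 5.47 in Chd4dPax7ER and 0.14 to 0.91 in Chd4fl/fl. Most of this was Slc2a4 (mean 1.32 RPKM in vitro and 1.45 in vivo), the glucose transporter GLUT4, which muscle also makes, and which rose in vivo (1.71, adjusted p 0.000792). The next highest were Adrb3 in vitro (0.0543 RPKM) and Thrsp in vivo (0.32 RPKM). Adipoq was listed at 0 in all 4 AdGFP and all 4 Chd4dPax7ER libraries, and Plin1 and Cidec in all libraries of 3 groups. In both settings 10 of the 11 markers were below the filter. Low Fabp4 stood beside these values.

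Mature myofibre markers were higher in Chd4dPax7ER, with 9 of 9 tested rising and sums of 1348, 2738, 1011 and 1133 RPKM in replicates 1 to 4 against 328 to 649 RPKM in Chd4fl/fl (Mylpf and Acta1 the most abundant). Over all genes 14.7% rose and 11.9% fell in vivo. Of the satellite cell and myoblast markers 5 of 11 rose in vivo and 2 fell, and 8 log2 fold changes were positive and 3 negative. Myog and Des were the most abundant, with log2 fold changes of 0.96 and 1.00. Pax7, named outside the rule of the 2 most abundant, was lower in Chd4dPax7ER (11.5 ± 2.9 against 21.3 ± 6.4 RPKM, log2 fold change -0.85, adjusted p 0.0301). The part of these marker differences in the rise of Ppargc1a, Fabp3 and Fndc5, which muscle fibres also express, was not tested.

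Fibro-adipogenic progenitor markers rose as well, with 4 of 8 tested rising and sums of 158 to 281 RPKM in Chd4dPax7ER and 37.8 to 44.7 RPKM in Chd4fl/fl. The share rising over all genes, 14.7%, is the background for this count and those of the marker lists that follow in vivo. Dcn and Lum, matrix proteoglycans, made up most of the sum in Chd4dPax7ER (log2 fold changes 3.23 and 4.14, adjusted p 2.67e-05 and 1.02e-05). All 8 tested had a positive log2 fold change, with a median of 1.04. Pdgfra, Tcf21 and Ly6a are named outside the rule of the 2 most abundant, and they do not stand for the list. Pdgfra, a receptor gene, was at 0.89 to 1.82 against 0.82 to 1.1 RPKM (adjusted p 0.18). Tcf21 was listed at 0 in all libraries of both groups. Ly6a, which encodes the SCA1 antigen that the gate excludes, was at 8.86 ± 2.93 and 5.52 ± 3.05 RPKM. Their part in the rise of Cebpa, Cebpb and Plin2 was not tested. Macrophage and leukocyte markers summed to 96.8 to 202 RPKM in Chd4dPax7ER and 75 to 145 RPKM in Chd4fl/fl, mostly Lyz2 (mean 70.5 RPKM) and then Cd68 (12.9), with 1 of 11 tested rising; Ptprc, which encodes CD45, was below the filter. Endothelial markers summed to 9.21 to 14.8 against 3.96 to 7.52 RPKM, led by Tek and Cldn5, with 1 of 2 tested rising. Pericyte markers summed to 70.3 to 121 against 26.3 to 37.4 RPKM, led by Mcam and Notch3, with 4 of 6 rising.

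In culture the replicate pairs differed in the same markers. Myofibre markers summed to 948 and 1233 RPKM in pair 1 (AdGFP and AdCRE), 3978 and 4894 in pair 2, 3724 and 4100 in pair 3 and 1538 and 2355 in pair 4, with Acta1 and Mylpf the most abundant, and 8 of 11 rose with the block (0 without it, 0 at an unadjusted p under 0.05). Over all genes 17.5% rose and 18.7% fell with the block, and 0.656% were called without it. These shares are the background for each marker list in culture. Pericyte markers summed to 257 to 506 RPKM in AdCRE and 86.1 to 151 in AdGFP, mostly Rgs5 and Mcam, with 1 of 5 rising without the block, and 4 with it. Fibro-adipogenic progenitor markers summed to 18.6 to 28.8 against 9.99 to 17.9 RPKM (led by Ly6a and Smoc2), with 1 of 3 tested rising without the block, and 2 rising and 1 falling with it (Cd34, -1.02, named after its value was seen). Macrophage markers summed to 18.5 to 27.8 against 6.41 to 11 RPKM (led by Laptm5 and Cd68), and endothelial markers to 3.19 to 4.63 against 2.08 to 2.52 RPKM (led by Egfl7 and Tek). Of these, 2 of 2 macrophage and 2 of 3 endothelial markers tested rose with the block, and 0 of each were called without it (1 and 2 had an unadjusted p under 0.05). Of the satellite cell and myoblast markers, led by Myod1 and Myog, 0 of 11 were called without the block (2 had an unadjusted p under 0.05), and 1 rose and 4 fell with it (all genes 17.5% and 18.7%). The part of these differences in the rise of Lpl, Pparg and the other genes was not tested.

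**Figure D5:**
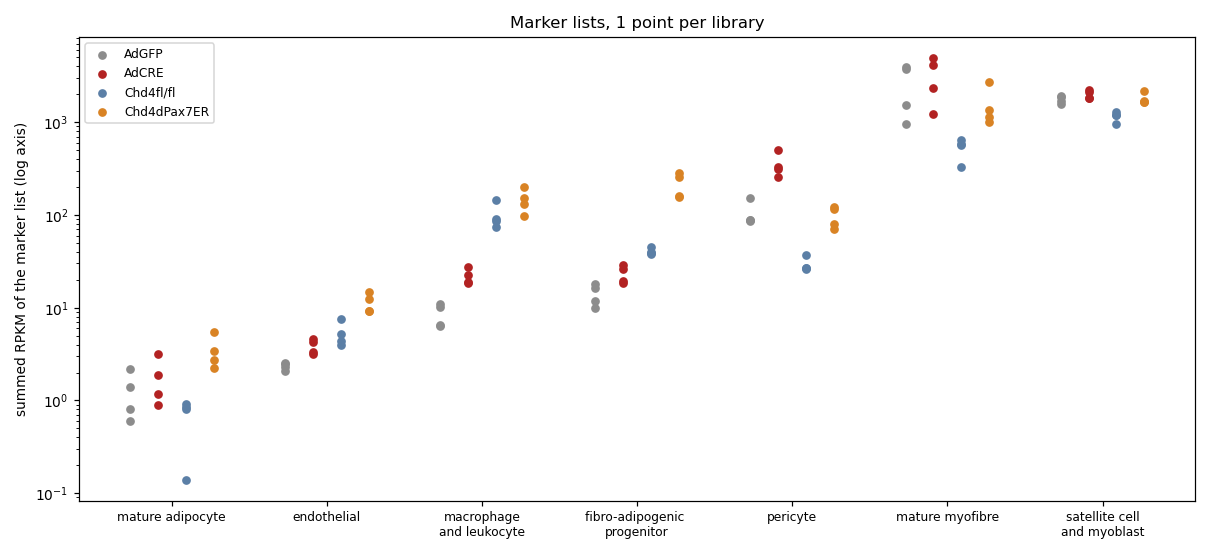
Summed level in RPKM (log axis) of 7 marker lists, with 1 point per library. Mature adipocyte markers stay at or below 5.47 RPKM in all 16 libraries, while the sums for myofibre and fibro-adipogenic progenitor markers of Chd4dPax7ER lie above those of Chd4fl/fl.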

How the data were processed

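RNA-seq of 16 libraries (4 groups of 4) was used; the 8 ATAC-seq samples were not analysed here. The authors deposited 1 table of RPKM values per setting (46078 genes, in vivo rounded to 2 decimals). The submitters' processing notes name cutadapt 1.18, HISAT2 2.1.0 and builds GRCm38 and mm10; the sources used here do not give the counting program or gene lengths, so reads shared by overlapping genes (Ppargc1b, Ppard and Plin2 overlap other gene models) cannot be assigned. Values were taken as log2(RPKM + 0.5), which understates fold changes of low genes. Genes with at least 0.5 RPKM in at least 4 of 8 libraries were fitted with limma 3.58.1 (R 4.3.3, eBayes with trend, tested on simulated data), with Benjamini-Hochberg adjustment over all genes tested and a threshold of 0.05. The in vitro replicate numbers pair the libraries (same-numbered deviations correlated at 0.711 to 0.856), so the fit with a replicate block is given beside those results; in vivo they do not (-0.0967 to 0.0499). Alternatives were other pseudocounts, filters, scalings, the block and leaving out each library.

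The 10 genes, the pathway lists and the marker lists were chosen with earlier results of these data known, so a count is no independent evidence of a direction. From each pathway list and comparison the text names up to 3 genes with the largest fold change among those called without overlap, or in vitro, where fewer than 2 were, the 2 with the smallest blocked adjusted p; from each marker list, the 2 most abundant; 1 gene so chosen is not reported here. Promoter windows and coordinates come from RefSeq tables of GRCm38.p6. Dlk1 is held by more than one identifier, and the one paired with that symbol in the gene table was used. SD is over 4 libraries, SE is limma's moderated standard error.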

Additional observations from a re-analysis of the deposited data

Results flagged for a closer look

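Among 94 groups of 4 libraries examined for the named genes, 5 held a library set far apart from the other 3; chance alone gives about 1 in 20. Pparg was at 11.3 RPKM in AdCRE replicate 1, with the other AdCRE libraries at 4.47 to 5.55 RPKM. Plin3 was at 56.5 RPKM in AdCRE replicate 1 and 38.8 RPKM in AdGFP replicate 1, each the highest of its group, so the same replicate number stood apart under both viruses. Fabp3 was at 15.7 RPKM in Chd4dPax7ER replicate 2, with the others at 5.28 to 5.77 RPKM, and Gata2 was at 1.88 RPKM in Chd4fl/fl replicate 4, with the others at 3.16 to 3.4 RPKM.

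Fold changes of 11 named genes and of Chd4 differed between the settings by the test of the difference itself (in vivo minus in vitro, log2). Without a block these were Cpt2 (0.84), Dgat2 (0.77) and Chd4 itself (0.68, a smaller fall in vivo). With the in vitro replicate block they were also Ppargc1a (1.22), Pparg (-1.21), Lpl (-1.21), Fabp3 (1.60), Gata2 (0.90), Klf2 (1.17), Lipe (0.66), Ncoa1 (-0.47) and Ucp2 (1.04). Over all genes tested in both settings, 4.12% differed without a block and 10.8% with it. Apart from Chd4, Ppargc1a, Pparg and Lpl, these genes were picked by their fold changes or p-values here, which favours such a difference. The settings differ in cells, injury, the way Chd4 was deleted and the time, which cannot be told apart here.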

How the results depend on the processing

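In vivo 4 of the 10 genes were called, 3 to 5 under other pseudocounts, filters, scalings and without the trend, 4 with the replicate block, and 2 to 3 without each library in turn. In vitro 0 were called without the block under each of these settings, 6 with the replicate block, 5 in each fit of the block without a pair, and 5, 6 and 6 with the block and a pseudocount of 0.1, TPM scaling or quantile scaling, settings chosen after seeing the data. For the difference between settings, the count of 0 became 3 with the replicate block and ran from 0 to 1 without each library, with Ppargc1a called without AdCRE replicate 1 (1.43, adjusted p 0.0293) and Lpl without AdCRE replicate 3 (-1.47, adjusted p 0.0443). Over all genes, the 89 in vitro calls became 4907 with the replicate block (4848, 4841 and 4958 with the added settings), 16 to 44 without each library, and 3825, 3720, 3814 and 3157 with the block and without pair 1, 2, 3 or 4. The 492 genes that differed between settings became 1294 with the block and 260 to 532 without each library. In vivo all-gene calls moved from 3548 to 2878 with the block, although the numbers do not pair these samples. No call among the 10 genes changed with it, and of the pathway genes named by the rule Rxrb alone lost its call (adjusted p 0.102). Of the genes named after their values were seen, Hdac3 (adjusted p 0.0631), Klf2, Nr3c1 and Acot2 also lost their in vivo calls with the block.

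Some signs reversed, in each case where the value was not called. Fabp4 in vivo became -0.045 with a pseudocount of 0.1, -0.068 with TPM scaling and -0.082 with quantile scaling, and ran from -0.27 to 0.31 without each library. The same range was -0.33 to 0.028 for Ppara in vivo, -0.19 to 0.011 for Ppargc1b in vitro and -0.69 to 0.11 for Klf2 in vitro, whose value with the block, where it was called, ran from -0.33 to -0.29 without each pair. For the difference between settings it was -0.015 to 0.43 for Cebpa and -0.11 to 0.56 for Plin2. The cause of these changes was not tested. TPM and quantile scaling moved the in vivo median of all genes from -0.02 to -0.07 and -0.06. Depth is unknown in vivo, and RPKM below about 1 there (Ppara, Pparg, Fabp4) cannot show small differences.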
